A study of Mus musculus with 10 samples.

Results

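The insulin-like growth factor (IGF) axis was described through 10 transcripts, the ligands Igf1 and Igf2, the receptors Igf1r and Insr, and the binding proteins Igfbp2 to Igfbp7. They were taken by gene symbol, and all 10 were listed in both tables, among 17816 genes in Sertoli cells at day 7 after birth and 20007 genes in adult testis. The study addressed the loss of Rnf20, an E3 ubiquitin ligase that acts on histone H2B, in Sertoli cells, the somatic cells that nurse germ cells inside the seminiferous tubules. RNA was sequenced in 10 samples. The day 7 table held 2 samples from Rnf20 Flox/Flox mice, which carry the floxed allele without deletion and are labelled WT, and 2 from Amh-Rnf20-/- mice, in which a Cre transgene under the Amh promoter deletes Rnf20 in Sertoli cells. Per the methods these cells were freed from tubules with enzymes, cultured with serum and passaged, and they name more individuals a group than the 2 samples analysed here. The adult table held 3 samples labelled WT and 3 labelled RNF20 conditional knockout, all of testis, with no age beyond adult in the labels. The study's text describes no RNA sequencing of adult testis, and 1 field of the labels gives adult tissue for all samples, also for those titled as day 7.

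IGF1 and IGF2 are secreted peptides that signal mainly through the receptor tyrosine kinase encoded by Igf1r, while Insr encodes the insulin receptor, one isoform of which also binds IGF2. Most IGF outside cells is held by binding proteins, which lengthen its life, keep it from its receptors or deliver it to them, and proteases that cut the binding proteins set it free. In the testis, signalling through these receptors is known to help set the number of Sertoli cells, and Leydig and peritubular myoid cells are known sources of IGF1.

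Levels are given as FPKM, fragments counted relative to the length of the transcript and to all mapped fragments, which allows comparison between genes of a sample. Fold changes come from the estimated counts after TMM scaling, which centres most genes on no change, and in adult testis, where the TMM factors were 0.710 to 0.761 under the WT label and 1.27 to 1.42 under the knockout label, they are smaller than the ratios of the FPKM. A gene was called at an adjusted p under 0.05 in edgeR's quasi-likelihood test with Benjamini-Hochberg adjustment over all genes tested. The methods name individuals for the day 7 groups, but nothing in the labels says that the samples of a group came from separate animals. The p-values thus measure the spread between these samples, part of which may be technical. All 10 members passed the filter on low values in both tables, though Igf1r and Igfbp5 passed in adult testis only through the samples labelled knockout.

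Each sample held 17477268 to 17705347 estimated counts in the day 7 table and 15431912 to 16574144 in the adult one. Rnf20 itself measured 16.6 and 16.0 FPKM in the Rnf20 Flox/Flox samples and 10.3 and 12.6 in the Amh-Rnf20-/- samples, lower in both, with a log2 fold change of -0.49 ± 0.12 (SE) that missed the threshold (adjusted p = 0.222). In adult testis Rnf20 was not lower, at 4.89, 3.32 and 4.09 FPKM under the WT label and 9.16, 5.76 and 9.85 under the knockout label (log2 fold change 0.12 ± 0.27, adjusted p = 0.688). With total counts it was called higher (0.97, adjusted p = 0.0168), as it was in both limma fits (0.97 and 0.84, adjusted p = 0.0152 and 0.0123). Scaled to the myoid or Leydig cell markers described next, Rnf20 was called lower (-1.31 and -3.71, adjusted p = 0.00264 and 1.70e-05 in edgeR's test). With those scalings 56.4% and 88.3% of all genes were called lower. The direction of Rnf20 thus depends on the scaling and gives no firm check of the adult labels. In adult testis the words control and knockout therefore name the labels only. Between those labels spermatid markers were far lower under knockout, and the paper reports that tubules of Amh-Rnf20-/- mice lacked round and elongated spermatids. The Amh promoter is active in Sertoli cells, and whole testis also holds RNA of all other cells of the organ. In such bulk samples fewer cells of a type cannot be told apart from less RNA per cell.

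The cell type labels were read against marker lists. At day 7 the summed FPKM of 19 Sertoli cell markers was 1957 and 1764 in Rnf20 Flox/Flox and 927 and 1435 in Amh-Rnf20-/- samples, but 9 peritubular myoid cell markers summed to 2023 to 2148 and to 3728 to 3774, and 7 stromal fibroblast markers to 2165 to 2254 and to 3372 to 3975. All 9 myoid and all 7 stromal markers were above both controls, while 12 of 18 Sertoli cell markers tested were below both, as were 9 of 11 spermatogonium markers tested, whose sum went from between 206 and 213 FPKM to between 144 and 147. Leydig cell markers summed to 156 and 162 FPKM in controls and to 302 and 214 in mutants, with 3 of 5 tested above both controls. Of all day 7 genes, 24.8% were above both controls and 26.1% below both on scaled counts. The day 7 samples thus carried smooth muscle and stromal transcripts at levels like those of the Sertoli cell markers, and more of them in the mutant samples. In adult testis 11 spermatid markers summed to between 124100 and 192700 FPKM under the WT label and to 3.86, 98.8 and 58.1 under the knockout label. Spermatocyte markers went from between 523 and 567 FPKM to 7.49, 105 and 177. The spermatogonium marker sum overlapped, at 306, 274 and 304 FPKM under the WT label and 13.0, 257 and 422 under the knockout label. Of 10 of these markers tested, 5 were called lower and 1 higher. By contrast 8 Leydig cell markers went from between 4067 and 5656 to between 65460 and 90280, and stromal markers from between 42.4 and 56.4 to between 1337 and 3445. The Sertoli cell marker sum went from between 962 and 1260 FPKM to between 3006 and 7712. Of 18 of these markers tested, 6 were called higher, 2 lower and 10 were not called. The myoid marker sum overlapped, at 301 to 373 FPKM under the WT label and 256 to 482 under the knockout label. Yet 7 of 9 myoid markers were called higher and 1 lower. Macrophage markers went from between 56.9 and 66.3 FPKM to between 1157 and 1580, with 9 of 9 called higher. Endothelial markers went from between 9.36 and 10.3 to between 49.8 and 85.3, with 7 of 10 called higher and 1 lower. In adult testis 40.9% of all genes were called higher and 40.6% lower. No marker present in the tables was at 0 in every sample of its table. The part of these shifts in the results for the IGF axis was not tested, and values scaled to the marker lists are given beside them.

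In the day 7 cells the axis was dominated by binding protein transcripts, with Igfbp7 alone at 871 ± 5.54 FPKM (SD, n = 2) in Rnf20 Flox/Flox. In the Amh-Rnf20-/- samples Igf1 was 3.04-fold higher, Igfbp2 2.38-fold, Igfbp4 2.13-fold, Igfbp6 1.65-fold, Igf2 1.58-fold and Igfbp7 1.32-fold higher, Igfbp5 was 2.75-fold and Igfbp3 1.42-fold lower, and both receptors stayed near their control level. None of the 10 members passed the adjusted threshold, where 0 of 12880 genes did (0%). At an unadjusted p under 0.05 there were 6 members higher, against 8.52% of all genes, and 2 lower, against 6.99%, out of 1997 such genes in all. DESeq2 called 581 genes, 7 of the members among them (Igf1, Igfbp2, Igfbp3, Igfbp4, Igfbp5, Igfbp6 and Igfbp7), and limma called 0. On scaled counts 7 members lay above both controls (24.8% of all genes did so) and 2 below both (26.1%), and the median log2 fold change was 0.53 over the members and 0.00 over all genes.

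**Figure D1:**
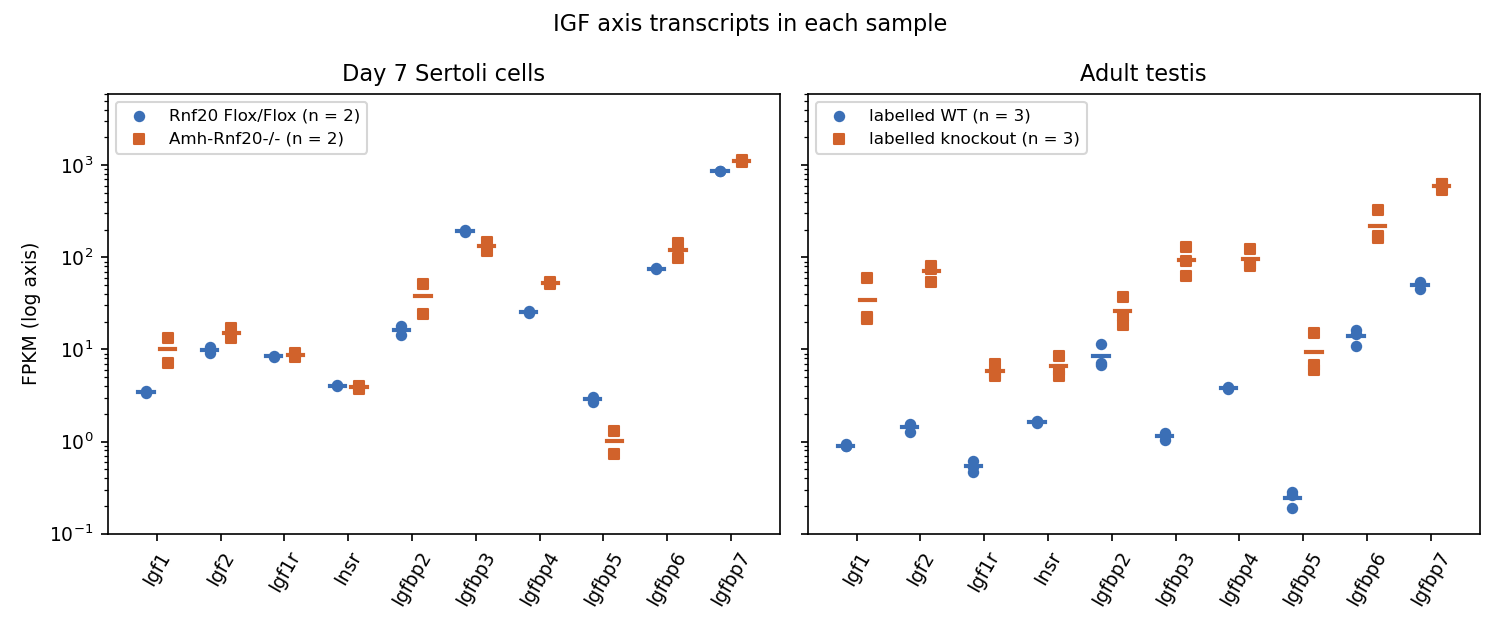
FPKM on a log axis of the 10 transcripts in every sample, with day 7 cells on the left and adult testis on the right, where circles stand for controls, squares for knockouts (in adult testis by label only) and lines for group means. Igfbp7 is the highest in all 4 groups, from 50.4 FPKM in adult controls to 1119 in day 7 knockouts, and in adult testis every square lies above every circle of its gene on this FPKM scale.

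Of the ligands, Igf1 (chr10:87858265-87937047, plus strand, GRCm38.p6) measured 3.37 and 3.56 FPKM in Rnf20 Flox/Flox and 13.3 and 7.13 in Amh-Rnf20-/- samples. Both mutant samples were above both controls, and they differed from each other more than the controls did, at log2 1.99 and 1.08 above the control mean. The log2 fold change was 1.61 ± 0.32 (SE; adjusted p = 0.172 in edgeR's test). Igf2 (chr7:142650768-142666816, minus strand), the imprinted fetal growth factor, measured 10.7 and 9.20 FPKM in controls and 16.9 and 13.2 in mutants. The groups did not overlap, and the log2 fold change was 0.66 ± 0.20 (adjusted p = 0.270). Igf1 overlaps the antisense gene Igf1os, and Igf2 overlaps Igf2os on the other strand and Gm49394 and Mir483 on its own; as strand handling is not given in the sources used here, their reads may be mixed.

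The receptors moved least. Igf1r (chr7:67952257-68233668, plus strand) measured 8.42 and 8.34 FPKM in Rnf20 Flox/Flox and 9.23 and 8.19 in Amh-Rnf20-/- samples, and Insr (chr8:3150922-3279649, minus strand) measured 4.03 and 4.08 in controls and 3.98 and 3.74 in mutants. On FPKM the Igf1r groups overlapped and both mutants were lower for Insr, but after TMM scaling both mutants were above the controls for Igf1r and Insr overlapped. Their log2 fold changes were 0.12 ± 0.10 and -0.03 ± 0.09, with adjusted p of 0.618 and 0.909. Insr overlaps Gm16180 on the opposite strand.

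Among the binding proteins, Igfbp4 had the smallest p of the 10 members at day 7. Igfbp4 (chr11:99040005-99052655, plus strand), which encodes an inhibitor of IGF action that the protease PAPP-A cuts, measured 26.1 and 24.6 FPKM in Rnf20 Flox/Flox and 54.5 and 50.7 in Amh-Rnf20-/- samples. The groups stood far apart and each was tight, with a log2 fold change of 1.09 ± 0.09 (adjusted p = 0.119). Igfbp2 (chr1:72824480-72852474, plus strand), a binding protein abundant in fetal tissues, measured 17.8 and 14.3 FPKM in controls and 51.7 and 24.0 in mutants. Here the mutant pair spread widely, at log2 1.73 and 0.55 above the control mean, and the log2 fold change of 1.25 ± 0.41 had an adjusted p of 0.288. Igfbp6 (chr15:102144186-102149512, plus strand), whose protein prefers IGF2, measured 73.8 and 76.7 FPKM in controls and 142 and 98.7 in mutants. Both mutants were higher (log2 fold change 0.72 ± 0.20, adjusted p = 0.242). Igfbp7 (chr5:77349240-77408045, minus strand), which encodes a secreted relative with low affinity for IGF, measured 867 and 875 FPKM in controls and 1146 and 1092 in mutants. Its groups did not overlap (log2 fold change 0.40 ± 0.08, adjusted p = 0.166), and it overlaps Polr2b and Gm34648 on the opposite strand.

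A pair of binding proteins went the other way. Igfbp3 (chr11:7206086-7215498, minus strand), the main carrier of IGF in blood, measured 188 and 197 FPKM in Rnf20 Flox/Flox and 117 and 147 in Amh-Rnf20-/- samples. Both mutants were below both controls, with a log2 fold change of -0.51 ± 0.13 (adjusted p = 0.221). Igfbp5 (chr1:72858065-72874865, minus strand), which encodes a binding protein that also attaches to extracellular matrix, measured 2.69 and 3.07 FPKM in controls and 0.73 and 1.31 in mutants, the lowest transcript of the 10. Both mutants were again lower (log2 fold change -1.46 ± 0.31, adjusted p = 0.178). Igfbp2, which was higher, and Igfbp5, which was lower, lie next to each other on chromosome 1 in opposite orientations, with 5590 bases and 0 annotated genes between them.

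The 250 bases before a start site of these 4 binding protein genes are shown because the genes differed in direction at day 7, above control for Igfbp2 and Igfbp4 and below it for Igfbp3 and Igfbp5. They are RefSeq sequences of GRCm38.p6, written on the strand of the gene; 9 of the 10 members had an entry. Both strands were searched for TATAAA and GGGCGG, which do not overlap each other, and matches are in capitals. Of 32851 promoters of this length, 12.4% held TATAAA and 32.7% held GGGCGG. Igfbp2 held 3 matches to GGGCGG at its first listed start (chr1:72824230-72824479) and neither motif at the other (chr1:72825137-72825386), Igfbp4 (chr11:99040994-99041243) held TATAAA starting 28 bases before the start site, and Igfbp3 (chr11:7213924-7214173) and Igfbp5 (chr1:72874866-72875115) held neither motif, which says only that these letters are not in this window.
Igfbp2: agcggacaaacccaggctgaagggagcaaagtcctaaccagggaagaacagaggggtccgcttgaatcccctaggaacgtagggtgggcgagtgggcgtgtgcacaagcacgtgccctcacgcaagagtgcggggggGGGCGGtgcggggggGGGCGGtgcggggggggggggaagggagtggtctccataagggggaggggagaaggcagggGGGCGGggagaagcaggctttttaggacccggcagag
Igfbp4: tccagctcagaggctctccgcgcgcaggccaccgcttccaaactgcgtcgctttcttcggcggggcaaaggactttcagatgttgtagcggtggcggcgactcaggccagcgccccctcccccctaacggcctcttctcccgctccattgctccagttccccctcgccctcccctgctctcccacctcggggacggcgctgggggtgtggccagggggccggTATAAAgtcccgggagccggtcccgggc
Igfbp3: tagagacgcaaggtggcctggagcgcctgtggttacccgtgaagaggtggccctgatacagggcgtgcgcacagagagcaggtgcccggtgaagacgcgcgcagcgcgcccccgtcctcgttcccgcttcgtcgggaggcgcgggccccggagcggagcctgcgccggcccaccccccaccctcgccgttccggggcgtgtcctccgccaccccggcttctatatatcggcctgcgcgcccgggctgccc
Igfbp5: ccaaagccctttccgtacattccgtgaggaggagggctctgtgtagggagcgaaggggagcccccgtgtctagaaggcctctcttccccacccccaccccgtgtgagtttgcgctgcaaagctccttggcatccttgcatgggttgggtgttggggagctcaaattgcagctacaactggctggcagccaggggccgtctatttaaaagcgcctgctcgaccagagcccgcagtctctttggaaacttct

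In the Amh-Rnf20-/- pair the first sample lay farther from the controls than the second for all 9 members whose groups did not overlap, and for 68.2% of the 6552 genes of that kind. The same sample had the lower Sertoli cell marker sum (927) and the higher stromal sum (3975). Leaving it out kept the direction of every member, and edgeR then called 7 members and 2757 genes. Leaving out the second called 9 members and 5136 genes, and leaving out either control called 0 of both; in each of these fits the lone sample was assumed to vary like the group that kept 2.

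At day 7 the scalings to marker lists moved all genes together, with a median log2 fold change of all genes of -1.08 for myoid, 0.88 for Sertoli cell and -0.42 for Leydig cell markers, and with them the sign of several members. Scaled to the 9 myoid markers, Igf2, Igf1r, Igfbp6 and Igfbp7 were below 0 (log2 fold changes of -0.41, -0.97, -0.38 and -0.68), Igf1 was at 0.50, Igfbp2 at 0.15 and Igfbp4 at 0.02, and Igfbp3 and Igfbp5 were at -1.58 and -2.53. Scaled to the Sertoli cell markers, Igfbp3 was at 0.33 ± 0.78, below the median gene, Insr was at 0.88, Igf1 was at 2.66 and Igfbp5 at -0.74. Only Igf1, Igfbp2, Igfbp4 and Igfbp5 kept their direction under TMM and the scalings to Sertoli cell, myoid and Leydig cell markers.

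**Figure D2:**
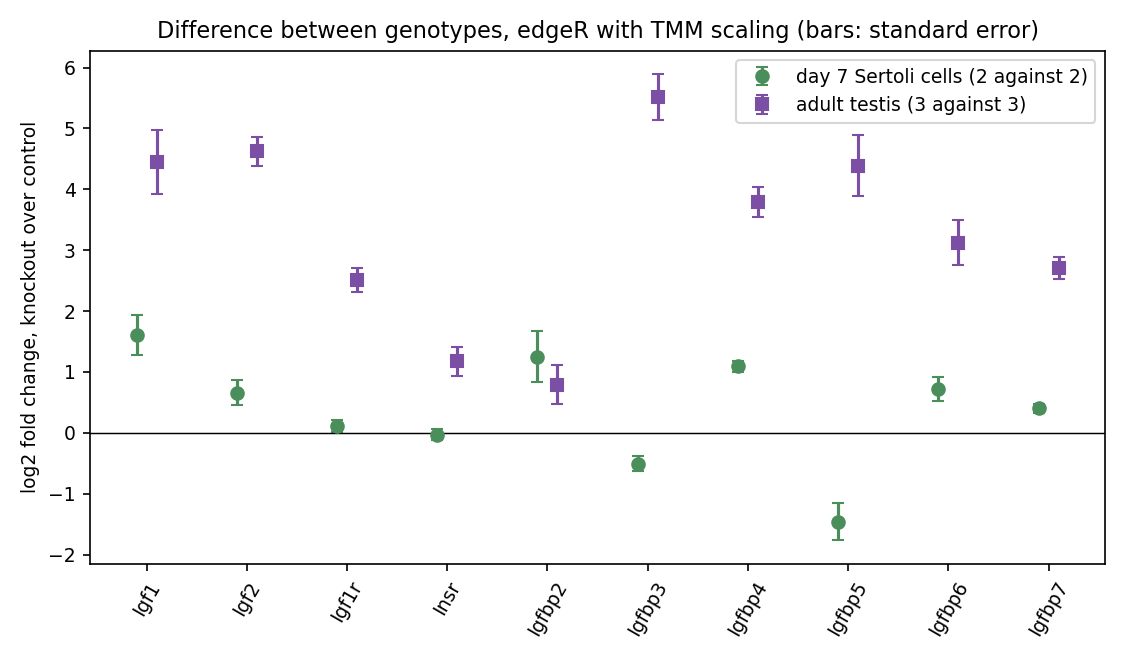
Log2 fold change of each transcript, knockout over control, with its standard error from edgeR with TMM scaling, for day 7 cells (circles, 2 against 2 samples) and adult testis (squares, 3 against 3). Igfbp3 and Igfbp5 are below 0 at day 7 (-0.51 and -1.46) and above 0 in adult testis (5.52 and 4.39), though scaled to Sertoli cell markers, which move the median gene to 0.88, Igfbp3 is at 0.33 at day 7, and 6 adult transcripts turn below 0 when scaled to Leydig cell markers.

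In adult testis labelled knockout, ligands, receptors and most binding proteins were far above their level in testis labelled WT. There 9 of 10 members rose at an adjusted p under 0.05, against 40.9% of 15919 genes, by 2.26-fold (Insr) to 45.9-fold (Igfbp3), but scaled to Leydig cell markers Igf1r, Insr, Igfbp6 and Igfbp7 were called lower, as were 88.3% of all genes (0.553% were called higher), Igf1, Igfbp4 and Igfbp5 were not called, and Insr was not called with Sertoli cell or myoid markers either. Igf1r and Igfbp5 were tested only because they passed the filter under the knockout label, so their calls add little to that count. All 10 members were above every control on scaled counts, against 42.4% of genes. The stricter cutoffs of the study, with an adjusted p under 0.001 and a change of more than 1 on the log2 scale, were passed by 8 members, against 23.0% of genes that did so upward, but by 4 without the second control, by 5 without the first control, the third control or the second sample labelled knockout, and by 0 with a replicate block, where 0 genes passed. Scaled to Sertoli cell, myoid or Leydig cell markers, 4, 5 and 2 members passed these cutoffs, where 3081, 5987 and 11974 genes did in either direction. The 2 with Leydig cell markers, Insr and Igfbp2, were lower. With TMM scaling the median log2 fold change was 3.46 over the members and 0.01 over all genes tested.

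The ligands were among the members that rose most. Igf2 measured 1.28, 1.56 and 1.51 FPKM under the WT label and 81.2, 75.0 and 54.4 under the knockout label, and Igf1 measured 0.89, 0.93 and 0.89 against 60.2, 21.6 and 22.6. For both genes the lowest knockout value was more than 20 FPKM and the highest control value below 2 FPKM. The log2 fold changes were 4.62 ± 0.24 for Igf2 (adjusted p = 3.18e-05) and 4.44 ± 0.53 for Igf1 (adjusted p = 0.000386). Scaled to Leydig cell markers they were 0.71 for Igf2 (adjusted p = 0.0255) and 0.47 for Igf1, which lost its call (adjusted p = 0.291). The error of Igf1 was the larger because the first knockout sample stood above the others, at log2 5.28 over the control mean against 3.72 in each of them.

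Both receptors rose, Igf1r more than Insr. Igf1r measured 0.53, 0.47 and 0.61 FPKM in controls and 6.90, 5.20 and 5.38 in samples labelled knockout, and Insr measured 1.59, 1.61 and 1.67 against 8.50, 6.04 and 5.15. The groups were far apart for both genes. The log2 fold changes were 2.51 ± 0.19 for Igf1r (adjusted p = 7.77e-05) and 1.17 ± 0.24 for Insr (adjusted p = 0.0040), and scaled to Leydig cell markers they were -1.38 and -2.76. Scaled to Sertoli cell markers Insr was at 1.46 ± 0.90 and lost its call (adjusted p = 0.184).

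Igfbp3 rose most of the 10. It measured 1.05, 1.14 and 1.23 FPKM in controls and 130, 91.5 and 61.9 in samples labelled knockout, with a log2 fold change of 5.52 ± 0.37 (adjusted p = 5.60e-05). It stayed higher under every scaling, at 5.86 when scaled to Sertoli cell, 4.08 to myoid and 1.57 to Leydig cell markers (adjusted p = 0.00123 for the last in edgeR's test). Igfbp5 measured 0.19, 0.28 and 0.26 FPKM in controls and 15.1, 6.74 and 5.97 in samples labelled knockout, which is again no overlap. Its log2 fold change was 4.39 ± 0.51 (adjusted p = 0.000350), and scaled to Leydig cell markers it was 0.41 and no longer called (adjusted p = 0.386). The same 2 genes were the members that lay below both controls in the day 7 cells on scaled counts. On FPKM Insr did so there as well.

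Igfbp4, Igfbp6 and Igfbp7 were at 3.69 FPKM or more in every control and also rose. Igfbp4 measured 3.84, 3.69 and 3.94 FPKM in controls and 123, 83.9 and 80.6 in samples labelled knockout (log2 fold change 3.80 ± 0.24, adjusted p = 4.91e-05). Igfbp6 measured 16.2, 14.7 and 11.0 FPKM against 323, 163 and 169, the first sample being almost as high as the others together (log2 fold change 3.13 ± 0.38, adjusted p = 0.000410). Igfbp7 measured 53.8, 51.8 and 45.4 FPKM against 625, 628 and 542 (log2 fold change 2.71 ± 0.18, adjusted p = 5.34e-05). No group overlapped in any of these genes, and scaled to Leydig cell markers the log2 fold changes were -0.12, -0.80 and -1.18.

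Igfbp2 was the exception. It measured 11.5, 7.16 and 6.69 FPKM in controls and 18.6, 36.7 and 23.3 in samples labelled knockout, so the groups did not overlap on FPKM. The log2 fold change after TMM scaling was 0.79 ± 0.32 and missed the threshold (adjusted p = 0.0571). It passed when scaled to total counts (log2 fold change 1.64, adjusted p = 0.0038) and in both limma fits (1.60 and 1.50, adjusted p = 0.0046 and 0.0034). Over the 6 left-out samples it ranged from 0.45 without the second knockout sample (adjusted p = 0.174) to 1.09 without the first (adjusted p = 0.00636). Without the first control it also passed (1.02, adjusted p = 0.0437 in edgeR's test). Scaled to myoid or Leydig cell markers it was at -0.47 (adjusted p = 0.373) and -3.06 (adjusted p = 3.54e-05).

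**Figure D3:**
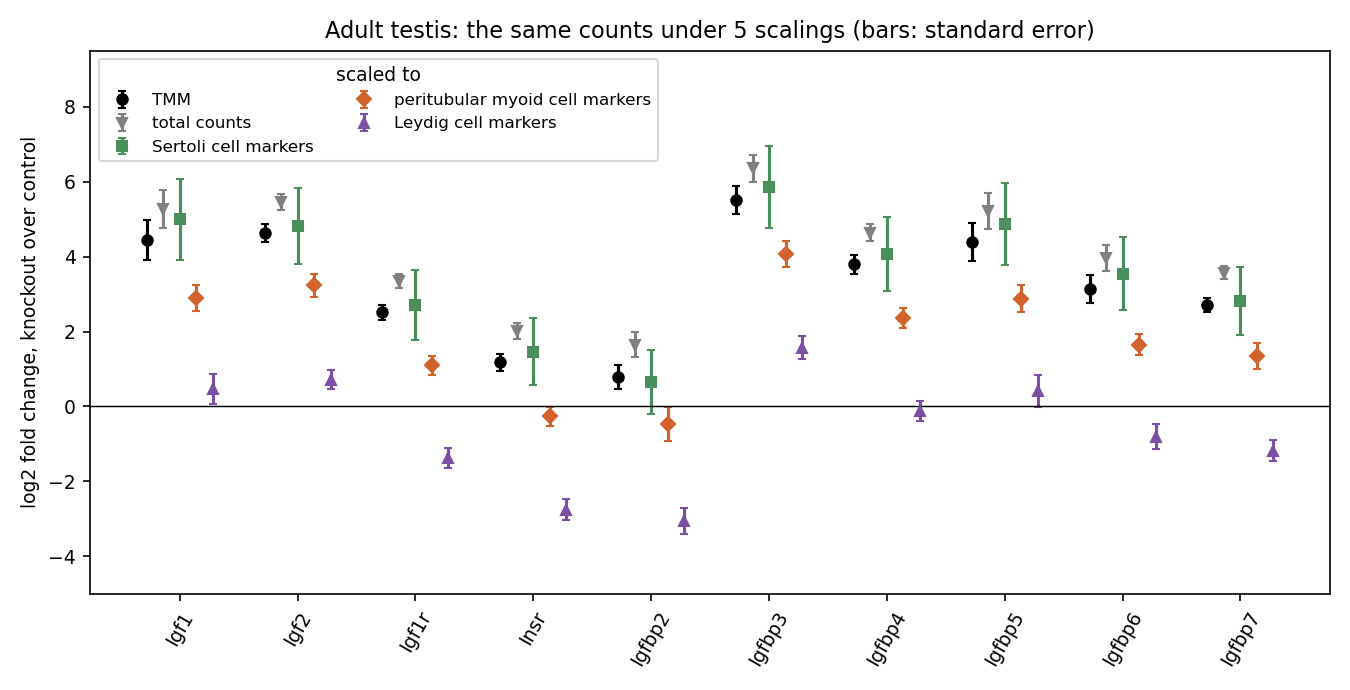
Log2 fold change of each transcript in adult testis, knockout label over WT label, with its standard error. The same counts were scaled to TMM factors, total counts or the geometric mean count of a marker list. Igf1, Igf2, Igfbp3 and Igfbp5 stay above 0 under all 5 scalings, with 0.41 to 1.57 under Leydig cell markers, where only Igf2 and Igfbp3 remained called higher, while Insr and Igfbp2 fall below 0 under myoid and Leydig cell markers and Igf1r, Igfbp4, Igfbp6 and Igfbp7 under Leydig cell markers alone.

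These scalings move all genes of a sample alike and set what a change is relative to. With total counts the median log2 fold change of all adult genes was 0.87, and 8615 genes were called higher and 4775 lower, where TMM gave 0.01, with 6503 higher and 6466 lower. With myoid markers the median was -1.34 and with Leydig cell markers -3.85, so a member at -1.18 in the last scaling was still above the median gene.

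The first adult sample labelled knockout stood apart. It was the farthest from the controls for 9 of 10 members, Igfbp2 excepted, and for 60.3% of the 12231 genes whose groups did not overlap. It also had the highest stromal marker sum (3445 FPKM against 1357 and 1337), the lowest Sertoli cell marker sum (3006 against 6468 and 7712) and the lowest spermatogonium marker sum (13.0 against 257 and 422). Leaving it out left all 10 members called higher, with log2 fold changes of 3.86 for Igf1, 3.92 for Igfbp5 and 5.31 for Igfbp3.

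Within the day 7 controls the order of FPKM was Igfbp7, Igfbp3, Igfbp6, Igfbp4, Igfbp2, Igf2, Igf1r, Insr, Igf1 and Igfbp5, and no neighbours in it overlapped. In the Amh-Rnf20-/- samples Igf1 (10.2 ± 4.37 FPKM, SD, n = 2) passed both receptors, though it overlapped Igf1r (8.71 ± 0.735) and Igf2 (15.0 ± 2.62), and Igfbp3 (132 ± 21.4) came to overlap Igfbp6 (120 ± 30.6), as did Igfbp4 and Igfbp2. Adult controls had another order, with Insr (1.62 ± 0.0416, n = 3) above both ligands and Igf1r (0.537 ± 0.0702) below them, and there only Igfbp6 and Igfbp2 overlapped. In adult samples labelled knockout Insr (6.56 ± 1.74) and Igf1r (5.83 ± 0.934) had the lowest means of the 10 and overlapped. Insr also overlapped Igfbp5 (9.27 ± 5.07). Igf2 (70.2 ± 14.1) lay among the binding proteins and overlapped Igfbp3 (94.5 ± 34.1) and Igf1 (34.8 ± 22.0). The tables were made separately, so levels across them are set side by side without a test.

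Shares of the summed FPKM of Igfbp2 to Igfbp7 do not depend on the scaling of a sample. At day 7 this sum was 1176 and 1191 FPKM in controls and 1512 and 1414 in mutants, and Igfbp7 made up 73.6% ± 0.229 (SD, n = 2) and 76.5% ± 1.01 of it. The share of Igfbp3 was 16.3% ± 0.425 in controls and 9.07% ± 1.90 in mutants, and that of Igfbp4 2.14% ± 0.109 and 3.60% ± 0.0134. In both cases the samples of the groups did not overlap. In adult testis the sum was 68.5 to 86.6 FPKM under the WT label and 883 to 1234 under the knockout label. The share of Igfbp2 was 10.7% ± 2.26 (n = 3) against 2.59% ± 1.07, and that of Igfbp3 1.49% ± 0.293 against 8.87% ± 1.77, again with no overlap. Igfbp6, with 17.8% ± 1.52 and 20.5% ± 5.15, overlapped between the labels. Igfbp2 thus held less and Igfbp3 more of the adult pool under the knockout label, while at day 7 Igfbp3 held less of the pool in the mutants. No test was run on the shares.

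**Figure D4:**
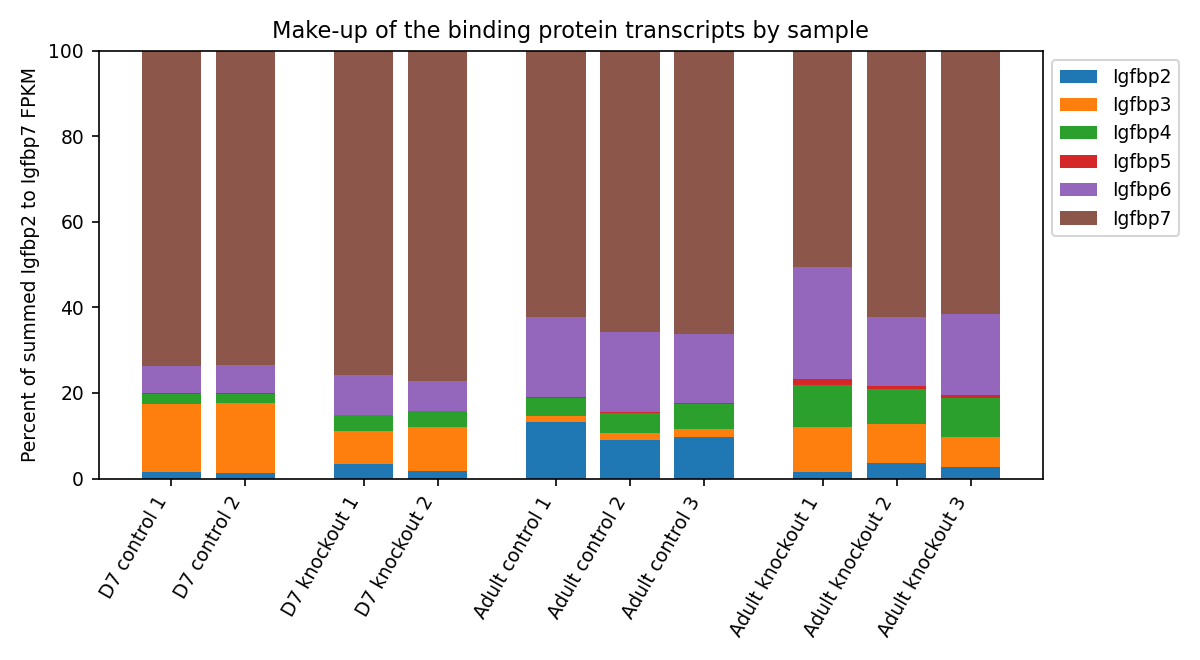
Percent of the summed FPKM of the 6 binding protein transcripts taken by each, 1 stacked bar per sample. Igfbp7 takes the most in every sample, 50.7% to 77.2%, and Igfbp2 takes 9.09% to 13.3% in adult controls but 1.50% to 3.64% in adult samples labelled knockout.

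Ratios within a sample were compared next, in an exact two-sided permutation test that cannot go below p = 0.333 with 2 against 2 samples or 0.1 with 3 against 3. Igf1r to Insr was 2.06 and 2.02 in day 7 controls and 2.29 and 2.16 in mutants (exact p = 0.333), and 0.373, 0.333 and 0.401 in adult controls and 0.814, 0.863 and 1.04 in samples labelled knockout (exact p = 0.1). The receptor ratio was higher in both day 7 mutants, by log2 0.12, and in every adult sample labelled knockout, by log2 1.29; with a pseudocount of 1 the adult difference was 0.64. Igf2 to Igf1 was 3.11 and 2.54 in day 7 controls and 1.27 and 1.84 in mutants, lower by log2 0.88 with no overlap (exact p = 0.333). In adult testis that ratio was 1.39, 1.61 and 1.63 in controls and 1.35, 3.45 and 2.40 in samples labelled knockout, which overlapped (exact p = 0.4). The adult difference of log2 0.54 was 0.77 with a pseudocount of 1 and 0.90 without the first sample labelled knockout. With either choice the groups no longer overlapped (exact p = 0.1 in each). The difference was smaller, at 0.22, without the second sample labelled knockout (exact p = 0.7) and at 0.34 on TMM-scaled counts (exact p = 0.5).

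The summed binding proteins exceeded the summed ligands in every sample. Their ratio was 83.1 and 92.7 in day 7 controls and 49.9 and 69.3 in mutants (exact p = 0.333), and 38.2, 30.5 and 27.5 in adult controls and 8.73, 10.4 and 11.5 in samples labelled knockout (exact p = 0.1). It was lower in both day 7 mutants and in every adult sample labelled knockout, with log2 differences of -0.58 and -1.65, and of -0.745 and -1.41 with Igfbp7 left out of the sum, a choice made after seeing the data. The day 7 difference was -0.34 without the first mutant sample and -0.92 on TMM-scaled counts. The 3 ratios in 2 tables make 6 comparisons, each at or above the smallest p its design allows, so no adjusted value could pass.

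**Figure D5:**
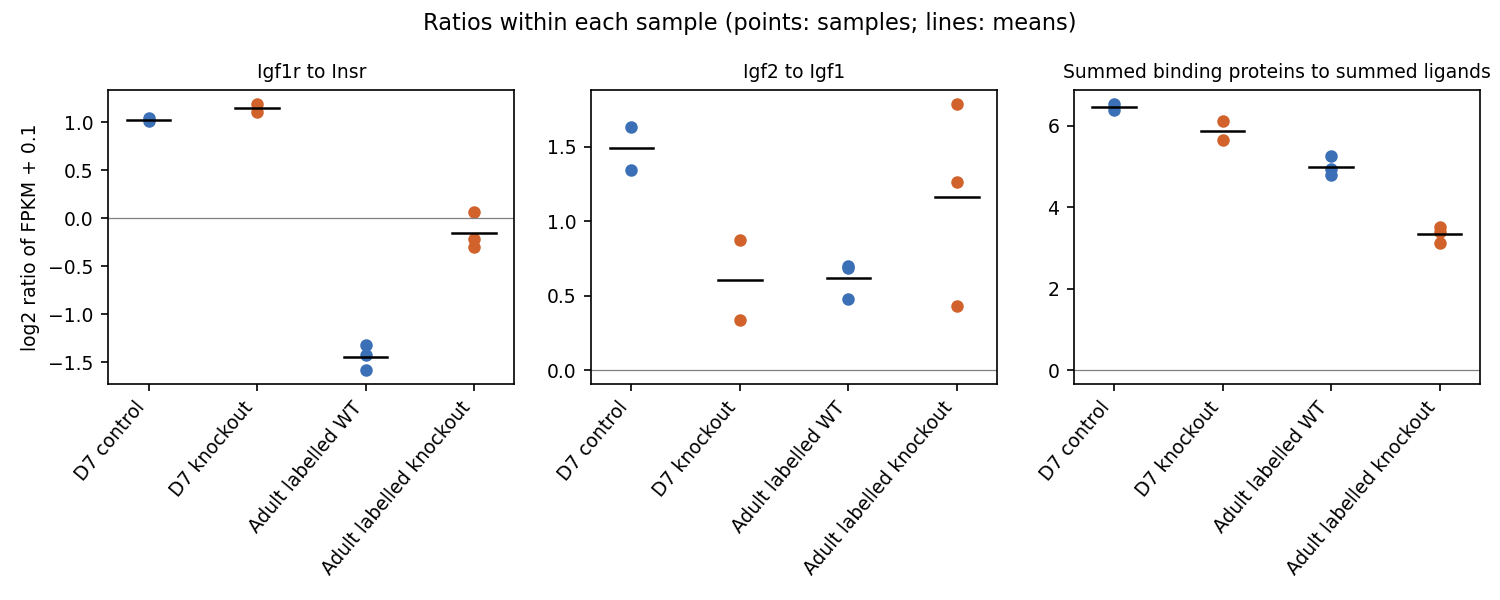
Log2 ratio of FPKM + 0.1 within each sample for receptors, ligands and binding proteins over ligands, where points are samples and black lines group means. Binding proteins over ligands is lower in day 7 mutants than in controls, by log2 0.58, and lower under the adult knockout label than under the WT label, by log2 1.65, and the adult ligand ratios overlap.

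Other genes of the pathway were read from lists. At day 7 none passed the adjusted threshold in any list. In adult testis the counts stand against 40.9% of all genes called higher and 40.6% called lower, and Ins2, Insrr, Ghr, Stat5b, Ccn3, Stc1, Stc2, Adam12, Adamts1, Igf2bp2, Irs1 and Pik3r1 passed the filter only through the samples labelled knockout, so their higher calls say little by themselves. Lower calls with Leydig cell markers stand against 88.3% of all genes. With Sertoli cell markers 47.1% of all genes were called in either direction, and with myoid markers 74.4%. In adult testis, of 3 other ligands and receptors tested, 3 rose, including Igf2r, the receptor that clears IGF2, from 0.59 to 0.82 FPKM up to 3.96 to 6.17 (log2 fold change 1.94, adjusted p = 0.000182), and Ins2 (log2 fold change 2.68); Igf2r lost its call with Sertoli cell (adjusted p = 0.0873) and myoid markers (0.154) and was called lower with Leydig cell markers, and Ins2 was called with none of the 3. Insrr, an orphan relative of the insulin receptor, was at 0 to 0.01 FPKM in controls and 0.50 to 0.67 in samples labelled knockout, and it lost its call with Leydig cell markers (adjusted p = 0.0662). Of 5 genes of growth hormone input, which drives Igf1 in liver, 4 rose, with the receptor Ghr from 0.48 to 0.53 up to 9.41 to 15.7 FPKM (log2 fold change 3.92), Stat5b (3.51) and Jak2 (2.54), and Igfals, the partner of IGFBP3 in blood, fell (-4.03); with Leydig cell markers Ghr and Stat5b lost their call and Jak2 was called lower.

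Of 7 proteases of the binding proteins and their inhibitors, 6 rose and 1 fell. Htra1 went from 1.85 to 4.06 FPKM up to 79.5 to 96.1 (log2 fold change 4.14), Htra3 from 3.11 to 4.13 up to 68.2 to 197 (4.25) and Adam12 from 0.12 to 0.22 up to 4.61 to 8.52 (4.44). Pappa, which encodes the protease that cuts IGFBP4, fell from 1.91 to 2.91 down to 0.27 to 0.71 FPKM (log2 fold change -3.08, adjusted p = 0.000336). With Leydig cell markers Htra1 (log2 fold change 0.31, adjusted p = 0.285), Htra3 (0.26, adjusted p = 0.535) and Adam12 (0.54, adjusted p = 0.137) lost their call, and Pappa kept its own. Of 5 other binding proteins and relatives tested, 4 rose, among them Ccn1 (3.59), Ccn3 (2.11) and Kazald1 (1.73), and with Leydig cell markers Ccn1 lost its call and Ccn3 and Kazald1 were called lower. Kazald1 lost its call with Sertoli cell and myoid markers, and Ccn3 with myoid markers and without the second control (adjusted p = 0.0600). Of 3 RNA-binding partners of Igf2, Igf2bp3 fell from 40.0 to 41.6 down to 0.62 to 1.70 FPKM (log2 fold change -5.85) and Igf2bp2 rose (1.13), the latter losing its call with Sertoli cell (1.29, adjusted p = 0.250) and myoid markers and without the first or second control (adjusted p = 0.0715 and 0.0523), and called lower with Leydig cell markers.

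Below the receptors the lists were mixed, and their counts changed with the scaling. With Sertoli cell markers 5 adaptors, 5 genes of PI3K and AKT and 3 of mTOR and FOXO were called. With myoid markers the counts were 5, 10 and 5, and with Leydig cell markers 9, 13 and 13, where TMM gave 10, 11 and 13. Of 10 adaptors 9 rose, with Irs1, a docking protein of both receptors, from 0.09 to 0.13 up to 3.09 to 5.36 FPKM (log2 fold change 4.42), Grb2 (2.57) and Grb14 (2.37), and Irs4 fell from 0.74 to 0.77 down to 0 to 0.04 FPKM; with Leydig cell markers Irs1 lost its call (0.51, adjusted p = 0.164) and Grb2 and Grb14 were called lower. Of 14 genes of PI3K and AKT, 6 rose and 5 fell, shares near those of all genes. The regulatory subunit Pik3r1 (3.79), the kinase Akt1 (2.32) and the phosphatase Inppl1 (1.47) rose, though with Leydig cell markers Pik3r1 lost its call and the other two were called lower, and Inppl1 lost its call with Sertoli cell and myoid markers, and Pdpk1, the kinase that activates AKT, fell from 118 to 131 down to 6.27 to 6.50 FPKM (-3.82), as did Phlpp1 (-4.36) and Pik3cd (-2.24). Of 13 genes of mTOR and FOXO, 9 rose and 4 fell. The transcription factors Foxo1 (2.23), Foxo4 (1.90) and Foxo3 (1.82) rose, though called lower with Leydig cell markers and, for Foxo3 and Foxo4, not called with Sertoli cell (adjusted p = 0.114 and 0.0566) or myoid markers (0.265 and 0.139), and Gsk3b (-2.33) and Mtor (-2.07) fell. Tsc1 fell by 0.81 on the log2 scale but was at 0.05 with total counts and not called with Sertoli cell markers, and its FPKM was 4.01 to 4.05 in controls and 3.95 to 4.46 in samples labelled knockout. Ins1 and H19 were not analysed here.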

How the data were processed

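The authors sequenced RNA and, per the labels' processing notes, used HISAT, Bowtie2 and GRCm38.p6. The 2 deposited tables hold estimated counts, FPKM and TPM per gene and sample; the authors' TPM were not used. Estimated counts, not whole (at a tolerance of 0) for 10.7% to 13.2% of genes, were rounded. Genes with at least 0.5 FPKM in as many samples as the smaller group were kept (12880 at day 7, 15919 in adult testis) and each table was fitted alone with edgeR 4.0.16 (R 4.3.3), TMM scaling, glmQLFit and glmQLFTest. Alternatives were DESeq2 1.42.0, limma 3.58.1 on log2(FPKM + 0.1) and log2(FPKM + 1), other scalings and filters, a replicate block and each sample left out. Ratios used FPKM + 0.1. Groups came from the labels. The 10 members and all lists were chosen with earlier results of these data known. Named pathway genes were those called, with groups that did not overlap, at most 3 a direction and list by size of change. The fits were run on simulated data with known changes. At day 7, 63.6% of log2 changes of 1 and 95.5% of 3 were recovered, with 18 false calls. In adult testis the shares were 4.55% and 76.1%, with 6 false calls. The measured day 7 samples gave 0 calls, so that simulation does not stand for them. The adult table also held 20 columns without a name or value.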

Additional observations from a re-analysis of the deposited data

Results flagged for a closer look

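Igfbp3 and Igfbp5 differed in direction between the tables, with every mutant sample below the controls in day 7 cells and every sample labelled knockout above them in adult testis. Neither day 7 change passed in edgeR's quasi-likelihood test (adjusted p = 0.221 for Igfbp3 and 0.178 for Igfbp5). With TMM scaling the log2 fold change in adult testis exceeded that at day 7 by 6.02 for Igfbp3 and by 5.85 for Igfbp5, and scaled to Leydig cell markers by 2.50 and by 2.30. Scaled to Sertoli cell markers, which put the median day 7 gene at 0.88, Igfbp3 was at 0.33 ± 0.78 (SE) at day 7, below that median by 0.56. The difference itself was not tested, since the tables were made separately and hold different material.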

How the results depend on the processing

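All 10 members kept their direction in both tables under the 8 alternatives other than marker scaling and left-out samples, and 4 of 10 in each table under all 3 marker scalings. At day 7, where the main count was 0 genes and 0 members, the scaling to Sertoli cell markers called 54 genes, myoid markers 11341 genes and 5 members, Leydig cell markers 5516 genes and 4 members, and DESeq2 581 genes and 7 members; leaving out each sample gave 0 to 5136 genes and 0 to 9 members. In adult testis Sertoli cell markers called 7502 genes, where the main count was 12969; leaving out each sample there called 9 or 10 members. The cause was not tested.

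The marker scalings move all genes of a sample alike. Directions that turned at day 7 were Insr (0.88), Igfbp3 (0.33) and Rnf20 (0.36) with Sertoli cell markers; Igf2 (-0.41), Igf1r (-0.97), Igfbp6 (-0.38) and Igfbp7 (-0.68) with myoid markers; Igf1r (-0.30) and Igfbp7 (-0.013) with Leydig cell markers; and Insr without the second mutant sample (-0.0798 to 0.0188 with each sample left out). In adult testis Rnf20 turned with median-ratio scaling and DESeq2 (-0.0753 in each) and with myoid (-1.31) and Leydig cell markers (-3.71), and Tsc1 with total counts (0.0482) and limma (0.0475 and 0.0394). Insr (-0.26), Igfbp2 (-0.47) and Igf2bp2 (-0.31) turned with myoid markers. With Leydig cell markers the members Igf1r (-1.38), Insr (-2.76), Igfbp2 (-3.06), Igfbp4 (-0.12), Igfbp6 (-0.80) and Igfbp7 (-1.18) turned, as did Ins2 (-0.99), Igf2r (-1.88), Ghr (-0.0246), Stat5b (-0.45), Jak2 (-1.33), Ccn1 (-0.33), Ccn3 (-1.73), Kazald1 (-2.16), Igf2bp2 (-2.75), Grb2 (-1.29), Grb14 (-1.46), Pik3r1 (-0.12), Akt1 (-1.57), Inppl1 (-2.40), Foxo1 (-1.63), Foxo4 (-1.98) and Foxo3 (-2.03).

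Whether the replicate numbers pair the samples was not settled. Deviations of same-numbered samples from their group means correlated at 0.03 at day 7 and at 0.01 to 0.03 in adult testis. Samples with different numbers gave -0.03 and -0.028 to 0.015. With 2 samples a group the day 7 values can differ only in sign, so they cannot decide it. With the number as a replicate block, 0 genes were called at day 7 (1789 at an unadjusted p under 0.05) and 12209 in adult testis, with 0 and 9 members.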
